A study of Mus musculus with 8 samples.

Results

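A set of 10 genes from 1 stretch of distal mouse chromosome 8 was followed through the prefrontal cortex of Shank3-deficient mice: Gse1, Jph3, Klhdc4, Slc7a5, Banp, Zfpm1, Zc3h18, Piezo1, Cbfa2t3 and Ankrd11. They are 10 of the 24420 genes counted in all libraries. The stretch runs from the start of Gse1 to the end of Ankrd11 (chr8:120228456-123042277, GRCm38, 2.81 Mb) and holds 35 other counted genes. The set was chosen by the low CPM of Banp and Cbfa2t3 in the saline-treated mice relative to wild type, which was known when the surrounding genes were added. The saline and wild-type levels of all 10 genes are therefore given as a description, with standard errors and no p-value for a single gene. Counts of genes past a threshold are given only beside the share of all genes that passed it, and nothing is supported with them. The romidepsin comparisons share the saline or the wild-type libraries, so they are treated in the same way.

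The 8 libraries of poly(A) RNA came from 3 groups of male mice, 5 to 6 weeks old per the labels, while the series design gives a wider range. The romidepsin group (2 libraries) and the saline group (3 libraries) were heterozygous Shank3+/ΔC mice, in which 1 copy of Shank3 lacks exon 21, a coding exon for the C-terminal part of this scaffold protein of excitatory synapses. The romidepsin group received the histone deacetylase inhibitor romidepsin at 0.25 mg/kg into the peritoneum once daily for 3 days, the saline group received saline, and the mice were killed 1 day after the final injection. The wild-type group (3 libraries) consisted of littermates for which the labels name no treatment, so genotype and saline injection cannot be told apart in the saline against wild-type comparison. Whether the libraries of a group came from separate animals is not stated, and the spread between libraries may be technical.

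Counts on genes ranged from 9855883 to 10143846 in the romidepsin group, from 7783538 to 15156318 in the saline group and from 12046120 to 13280615 in the wild-type group. Shank3 had 315 and 313 CPM (reads of a gene relative to all gene reads of its library, after TMM normalization) in the romidepsin libraries, 316, 252 and 301 CPM in the saline libraries and 299, 308 and 348 CPM in the wild-type libraries. Reads on the exons that remain in the deleted copy are counted too, so this does not check the genotype. The labels call the cells neurons. The 11 neuron markers were abundant, at a summed 13497 to 13592 CPM in the romidepsin group, 12724 to 13022 CPM in the saline group and 12486 to 13923 CPM in the wild-type group. Astrocyte, oligodendrocyte, microglia and vessel markers were present in every group as well, so the libraries hold whole tissue. In such bulk samples, fewer cells of a type and less RNA per cell cannot be told apart.

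Several of the 10 genes encode nuclear regulators of transcription, among them corepressors. Cbfa2t3 (also called ETO2 or MTG16) belongs to the ETO family of corepressors, which bind no DNA themselves and link transcription factors to corepressor complexes and histone deacetylases. Zfpm1 encodes FOG-1, a zinc finger cofactor of GATA factors that recruits the NuRD deacetylase complex. Gse1 encodes a component of LSD1-CoREST histone demethylase and deacetylase complexes. Ankrd11 encodes an ankyrin repeat chromatin regulator that binds coactivators and HDAC3, and its haploinsufficiency in humans causes KBG syndrome. Banp encodes a BEN domain protein that binds an unmethylated CGCG element in promoters of CpG islands. The other 5 genes encode other kinds of protein. Zc3h18 links the nuclear cap-binding complex to RNA decay. Slc7a5 encodes LAT1, the light chain of a transporter of large neutral amino acids that is abundant in brain endothelium. Piezo1 encodes a mechanically gated cation channel of vessels and other tissues, and Jph3 a junctophilin that ties the endoplasmic reticulum of neurons to the plasma membrane. Klhdc4 encodes a kelch domain protein of little known function.

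The promoter windows below show the range of CpG content in the set: the 2 start sites of Cbfa2t3 hold the fewest and the most CpG dinucleotides of its windows, and Zfpm1 and Klhdc4 lie in between. Each window is 300 bases, from 250 before to 50 after a RefSeq start site (GRCm38.p6), printed 5′ to 3′ on the gene's strand, with every CpG dinucleotide in capitals. Windows were matched for 8 of the 10 genes, 12 windows in all. Banp and Slc7a5 had no entry.
Cbfa2t3, upstream start (chr8:122699060-122699359, minus strand): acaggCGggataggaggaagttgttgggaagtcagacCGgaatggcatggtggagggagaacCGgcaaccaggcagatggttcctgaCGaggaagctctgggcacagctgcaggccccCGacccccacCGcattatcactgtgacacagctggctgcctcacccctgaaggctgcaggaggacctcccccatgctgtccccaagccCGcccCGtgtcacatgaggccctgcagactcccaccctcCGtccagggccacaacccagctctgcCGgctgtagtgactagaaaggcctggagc
Cbfa2t3, downstream start (chr8:122678126-122678425, minus strand): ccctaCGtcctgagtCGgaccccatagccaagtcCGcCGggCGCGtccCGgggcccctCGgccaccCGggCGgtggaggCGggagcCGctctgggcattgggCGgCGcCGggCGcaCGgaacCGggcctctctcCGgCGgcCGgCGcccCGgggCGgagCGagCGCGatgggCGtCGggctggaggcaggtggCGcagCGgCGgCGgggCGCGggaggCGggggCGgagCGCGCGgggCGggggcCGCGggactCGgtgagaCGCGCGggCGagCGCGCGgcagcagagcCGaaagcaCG
Zfpm1 (chr8:122281891-122282190, plus strand): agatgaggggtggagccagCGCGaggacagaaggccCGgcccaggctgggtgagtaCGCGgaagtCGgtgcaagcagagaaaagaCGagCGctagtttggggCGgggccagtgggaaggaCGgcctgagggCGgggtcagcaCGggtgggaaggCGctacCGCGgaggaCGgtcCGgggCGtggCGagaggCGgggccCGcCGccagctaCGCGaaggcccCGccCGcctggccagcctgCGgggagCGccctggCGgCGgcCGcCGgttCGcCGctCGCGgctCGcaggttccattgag
Klhdc4 (chr8:121829520-121829819, minus strand): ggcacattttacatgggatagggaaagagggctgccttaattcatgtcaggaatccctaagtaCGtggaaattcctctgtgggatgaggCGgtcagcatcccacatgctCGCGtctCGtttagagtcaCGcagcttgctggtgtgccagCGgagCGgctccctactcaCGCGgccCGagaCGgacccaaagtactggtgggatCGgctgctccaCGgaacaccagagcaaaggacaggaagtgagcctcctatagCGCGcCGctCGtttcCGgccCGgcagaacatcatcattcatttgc
The upstream window of Cbfa2t3 holds 10 CpG dinucleotides and the downstream window 53, more than 99.5% of the 32851 windows in the table. Zfpm1 holds 37 and Klhdc4 20, against a median of 7 over all windows. All 12 windows of the set stood above that median. The windows not printed hold 17, 23 and 37 in Gse1, 34 in Jph3, 35 and 37 in Zc3h18, 34 in Piezo1 and 36 in Ankrd11. Genes that stood lower in saline-treated mice (Gse1, Zfpm1 and Cbfa2t3) and genes that differed little (Klhdc4, Zc3h18) therefore overlapped in CpG content. The gene-level counts do not tell transcripts of the 2 Cbfa2t3 start sites apart. The CGCG element bound by Banp was searched as a 10-base palindrome centred on CGCG, which reads the same on both strands, and as the 8-base core inside it. Neither was in any of the 12 windows. Of all windows, 0.466% hold the 10-base element and 0.919% the core.

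The genes differ widely in level. Per kilobase of annotated exon and averaged over the 8 libraries, Jph3 stood highest at 56.7 CPM per kb, and its lowest library (48.5) lay above the highest of the next gene. Slc7a5 (16.1 CPM per kb) and Ankrd11 (15.4) followed and overlapped each other. Zfpm1 (10.1), Gse1 (7.91), Cbfa2t3 (5.89), Klhdc4 (5.25), Zc3h18 (4.63) and Banp (4.60) each overlapped the next in this order. Piezo1 was lowest, with 0.723 to 1.42 CPM per kb, below every library of Banp. In summed counts over the 8 libraries, Piezo1 rested on 1032 reads and Ankrd11 on 23275. All 10 genes passed the filter on low counts.

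**Figure D1:**
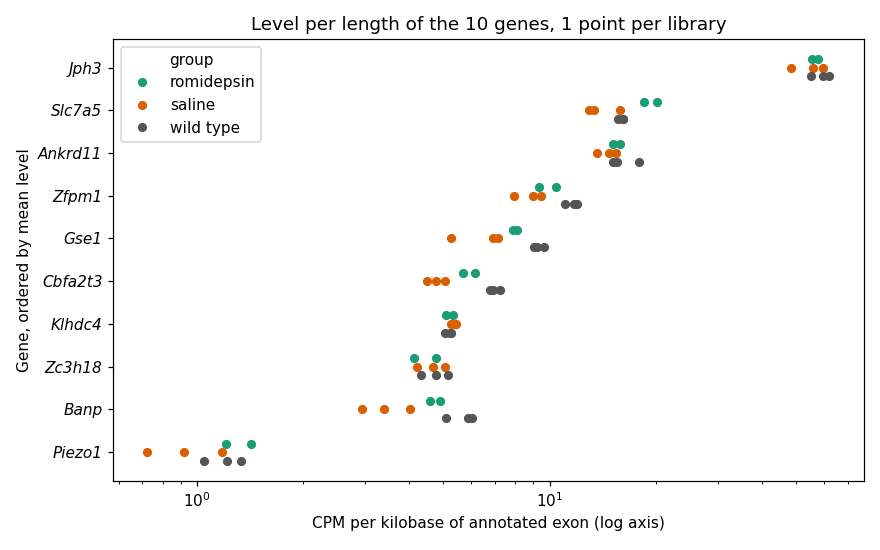
Level of the 10 genes per kilobase of annotated exon, on a log axis, with 1 point per library coloured by group and the genes ordered from highest to lowest mean. Jph3, at 48.5 to 62.1 CPM per kb, stands clear of the other genes, and Piezo1, at 0.723 to 1.42, lies below them.

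Saline-treated Shank3-deficient mice were compared with wild type, a comparison that holds the genotype and the saline injection together. Cbfa2t3, the corepressor gene, had 42.2, 39.8 and 37.7 CPM in the saline libraries, against 58.0, 56.9 and 60.5 CPM in the wild-type libraries. The groups lay well apart, with means of 39.9 ± 2.25 CPM in the saline group and 58.5 ± 1.83 CPM in the wild-type group (SD, n = 3 each), a log2 fold change of -0.55 (SE 0.08). Banp, the CGCG element binding gene, had 26.7, 22.5 and 19.5 CPM in the saline libraries, against 33.7, 38.9 and 40.0 CPM in the wild-type libraries. The highest saline library lay below the lowest wild-type library, and the log2 fold change was -0.70 (SE 0.12), the largest of the set.

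Gse1 and Zfpm1 stood lower in the same libraries. Gse1, the CoREST complex gene, had 71.4, 54.5 and 73.9 CPM in the saline group, against 93.7, 95.6 and 100 CPM in the wild-type group (log2 fold change -0.54, SE 0.10). Saline replicate 2 was the lowest. Zfpm1, the FOG-1 gene, had 33.2, 27.8 and 31.4 CPM in the saline group, against 41.0, 41.8 and 38.7 CPM in the wild-type group (log2 fold change -0.39, SE 0.10). Neither gene had overlapping groups. Ankrd11, the remaining chromatin gene, had 255, 245 and 226 CPM in the saline group, against 250, 258 and 297 CPM in the wild-type group, with overlap (log2 fold change -0.15, SE 0.08).

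The saline and wild-type groups overlapped in each of the membrane genes. Slc7a5, the amino acid transporter gene, had 58.6, 47.9 and 49.5 CPM in the saline group, against 59.9, 60.0 and 57.8 CPM in the wild-type group (log2 fold change -0.18, SE 0.09). Saline replicate 1 alone lay within the wild-type range. Piezo1, the mechanically gated channel gene, had 11.7, 9.12 and 7.18 CPM in the saline group, against 10.4, 12.1 and 13.2 CPM in the wild-type group (log2 fold change -0.32, SE 0.18). Jph3, the junctophilin gene, had 249, 216 and 265 CPM in the saline group, against 277, 246 and 266 CPM in the wild-type group (log2 fold change -0.11, SE 0.08). The RNA decay adaptor Zc3h18 stood at 42.7 ± 3.80 CPM in the saline group and 43.5 ± 3.76 CPM in the wild-type group (n = 3 each; log2 fold change -0.03, SE 0.10). Klhdc4 stood at 19.9 ± 0.351 CPM in the saline group and 19.2 ± 0.431 CPM in the wild-type group (log2 fold change 0.05, SE 0.10). Its spread within groups was smaller than in all but 0.581% of the tested genes.

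Across the set, 9 of 10 genes had a lower value in the saline group (median log2 fold change -0.25), beside 48.7% lower and a median of 0.00 over all 14809 genes tested. The edgeR quasi-likelihood test, with Benjamini-Hochberg adjustment over all genes, called 0 of the 10, where it called 0.00675% of all genes. At an unadjusted p under 0.05, 4 were lower (Cbfa2t3, Banp, Gse1 and Zfpm1) and 0 higher, beside 4.80% and 3.59% of all genes. DESeq2 called 3 of them lower (Cbfa2t3, Banp and Gse1), beside 0.179% of all genes, and 0 higher, beside 0.0344%. The limma-voom test called 0, beside 0.00675% of all genes. Groups did not overlap, with saline lower, in 4 of the 10 genes and in 6.36% of all genes, and with saline higher in 0 of the 10 and in 6.26% of all genes. This comparison was known when the set was drawn up, so nothing is read from these counts.

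**Figure D2:**
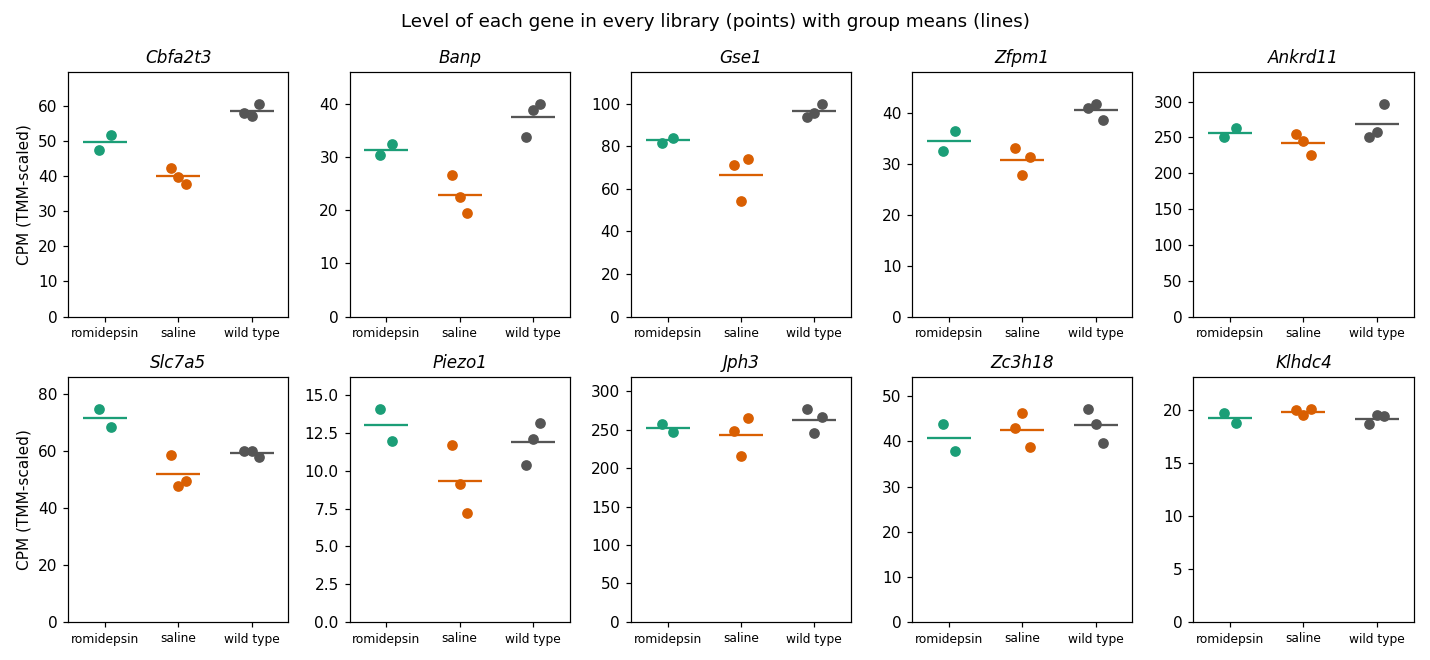
Level of each of the 10 genes in CPM, with 1 point per library and a line at each group mean, for the romidepsin (n = 2), saline (n = 3) and wild-type (n = 3) groups. Cbfa2t3, Banp and Gse1 run in 3 separate steps, with saline lowest and wild type highest, and Klhdc4 is level across the groups.

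Romidepsin against saline compares 2 libraries of romidepsin-treated with 3 libraries of saline-treated Shank3-deficient mice. These libraries also differed in tissue markers, as given below, and the part of the drug in a difference was not tested. Slc7a5 and Piezo1 had the largest log2 fold changes of the set. Slc7a5 had 74.8 and 68.5 CPM in the romidepsin libraries, against 58.6, 47.9 and 49.5 CPM in the saline libraries (log2 fold change 0.46, SE 0.10). Both romidepsin libraries lay above all saline libraries, and above all wild-type libraries too. Piezo1 had 14.1 and 12 CPM in the romidepsin group, against 11.7, 9.12 and 7.18 CPM in the saline group (log2 fold change 0.46, SE 0.20), which were barely separated at 12 and 11.7 CPM.

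Of the chromatin genes that were low in the saline group, Banp, Cbfa2t3 and Gse1 stood higher under romidepsin without overlap. Banp had 30.3 and 32.5 CPM in the romidepsin group, against 26.7, 22.5 and 19.5 CPM in the saline group (log2 fold change 0.44, SE 0.13). Cbfa2t3 had 47.5 and 51.5 CPM in the romidepsin group, against 42.2, 39.8 and 37.7 CPM in the saline group (log2 fold change 0.31, SE 0.09). Gse1 had 81.6 and 83.9 CPM in the romidepsin group, against 71.4, 54.5 and 73.9 CPM in the saline group (log2 fold change 0.31, SE 0.11). Without saline replicate 2 the log2 fold change of Gse1 was 0.19. In all 3 genes the romidepsin libraries stayed below the lowest wild-type library. Zfpm1, with 32.6 and 36.4 CPM under romidepsin and 33.2, 27.8 and 31.4 CPM in the saline group, overlapped (log2 fold change 0.16, SE 0.11). The other 4 genes overlapped as well, with log2 fold changes of 0.08 for Ankrd11, 0.05 for Jph3, -0.05 for Klhdc4 and -0.06 for Zc3h18 (SE 0.09 to 0.12).

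Of the 10 genes, 8 had a higher value and 2 a lower value under romidepsin than in the saline group (median log2 fold change 0.23), beside 51.0% lower over all genes. The edgeR test called 0 of the 10 and 0.00% of all genes. At an unadjusted p under 0.05, 5 were higher (Slc7a5, Piezo1, Banp, Cbfa2t3 and Gse1), beside 1.73% of all genes, and 0 were lower, beside 1.53%. DESeq2 called 0 of them (0.00675% of all genes in each direction) and limma-voom called 0, beside 0.00% of all genes. The same 5 had groups without overlap, beside 10.8% of all genes with romidepsin higher, and 0 had romidepsin lower without overlap, beside 10.2%. The saline libraries serve this comparison and the one with wild type, so opposite directions in the 2 are not separate observations.

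Against wild type, 7 of the 10 genes had a lower value in the romidepsin group (median log2 fold change -0.08), as did 7402 of the 14809 genes tested. Banp stood at 31.4 ± 1.54 CPM in the romidepsin group (n = 2) and 37.5 ± 3.36 CPM in the wild-type group (n = 3; log2 fold change -0.26, SE 0.13). Cbfa2t3 stood at 49.5 ± 2.88 CPM in the romidepsin group and 58.5 ± 1.83 CPM in the wild-type group (log2 fold change -0.24, SE 0.09). Zfpm1 stood at 34.5 ± 2.70 CPM in the romidepsin group and 40.5 ± 1.60 CPM in the wild-type group (log2 fold change -0.23, SE 0.11), and Gse1 at 82.7 ± 1.62 CPM in the romidepsin group and 96.5 ± 3.36 CPM in the wild-type group (log2 fold change -0.22, SE 0.11). These 4 genes had groups without overlap, beside 9.08% of all genes in that direction. Slc7a5 alone was higher without overlap, at 71.6 ± 4.41 CPM in the romidepsin group and 59.2 ± 1.24 CPM in the wild-type group (log2 fold change 0.28, SE 0.10), beside 9.34% of all genes. The edgeR test called 0 of the 10, where it called 0.00675% of all genes. At an unadjusted p under 0.05, 2 were lower (Cbfa2t3 and Zfpm1; 1.78% of all genes) and 1 higher (Slc7a5; 1.46%), and DESeq2 called 0, beside 0.00675% of all genes lower and 0.0203% higher. The limma-voom test called 0, beside 0.00675% of all genes.

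All 5 Shank3-deficient libraries lay below all 3 wild-type libraries in Banp, Cbfa2t3, Gse1 and Zfpm1, an arrangement found in 2.48% of all tested genes. In Banp, Cbfa2t3 and Gse1 the groups were fully ordered, with saline below romidepsin and romidepsin below wild type, as in 0.452% of all tested genes. Banp and Cbfa2t3 are the genes the set was chosen by, and nothing is read from these shares.

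The other genes of the stretch are given as a description. The members were chosen with the saline against wild-type results known. Every tested gene of the stretch with an unadjusted p under 0.05 by edgeR in that comparison is a member. The values of the genes left over therefore cannot show how far the low levels reach along the chromosome. Of the 35, 23 passed the filter on low counts. In saline against wild type, 13 had a higher and 10 a lower value (median log2 fold change 0.01), and 0 had an unadjusted p under 0.05 in either direction by edgeR, beside 3.59% higher and 4.80% lower over all genes. DESeq2 called 0 of the 23, beside 0.179% of all genes lower and 0.0344% higher. Groups did not overlap in 4 of them: Mthfsd, Trhr2 and Ctu2 had saline lower, beside 6.36% of all genes, and Acsf3 had saline higher, beside 6.26%. The other genes between Gse1 and Banp were mixed. Gins2 (-0.50, SE 0.37), Irf8 (-0.32, SE 0.28), Foxf1 (-0.63, SE 0.57), Fendrr (-0.81, SE 0.55) and Mthfsd (-0.23, SE 0.12) had negative log2 fold changes. Fbxo31 (-0.04, SE 0.08), Map1lc3b (0.00, SE 0.07), Zcchc14 (0.01, SE 0.09), Emc8 (0.04, SE 0.09) and Cox4i1 (0.08, SE 0.07) stood near 0. Foxc2 (0.33, SE 0.52) was positive. Gins2 had at most 40 reads in a library, Foxf1 12 and Foxc2 17. Fendrr, a noncoding RNA gene with at most 13 reads in a library, was the lowest of the 23. No tested gene lies between Banp and Zfpm1. Between Zfpm1 and Cbfa2t3, Trhr2 (-0.75, SE 0.38) and Ctu2 (-0.29, SE 0.15) were negative, the cholesterol synthesis gene Mvd (0.02, SE 0.12) stood near 0, and Galns (0.32, SE 0.20) and Trappc2l (0.24, SE 0.11) were positive. These genes were chosen after their values were seen. Trhr2 had at most 22 reads in a library. In romidepsin against saline, 16 of the 23 had a higher value (median 0.03). The other 7, or 30.4%, had a lower value, beside 51.0% of all genes. There 0 had an unadjusted p under 0.05 by edgeR, beside 1.73% higher and 1.53% lower over all genes.

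**Figure D3:**
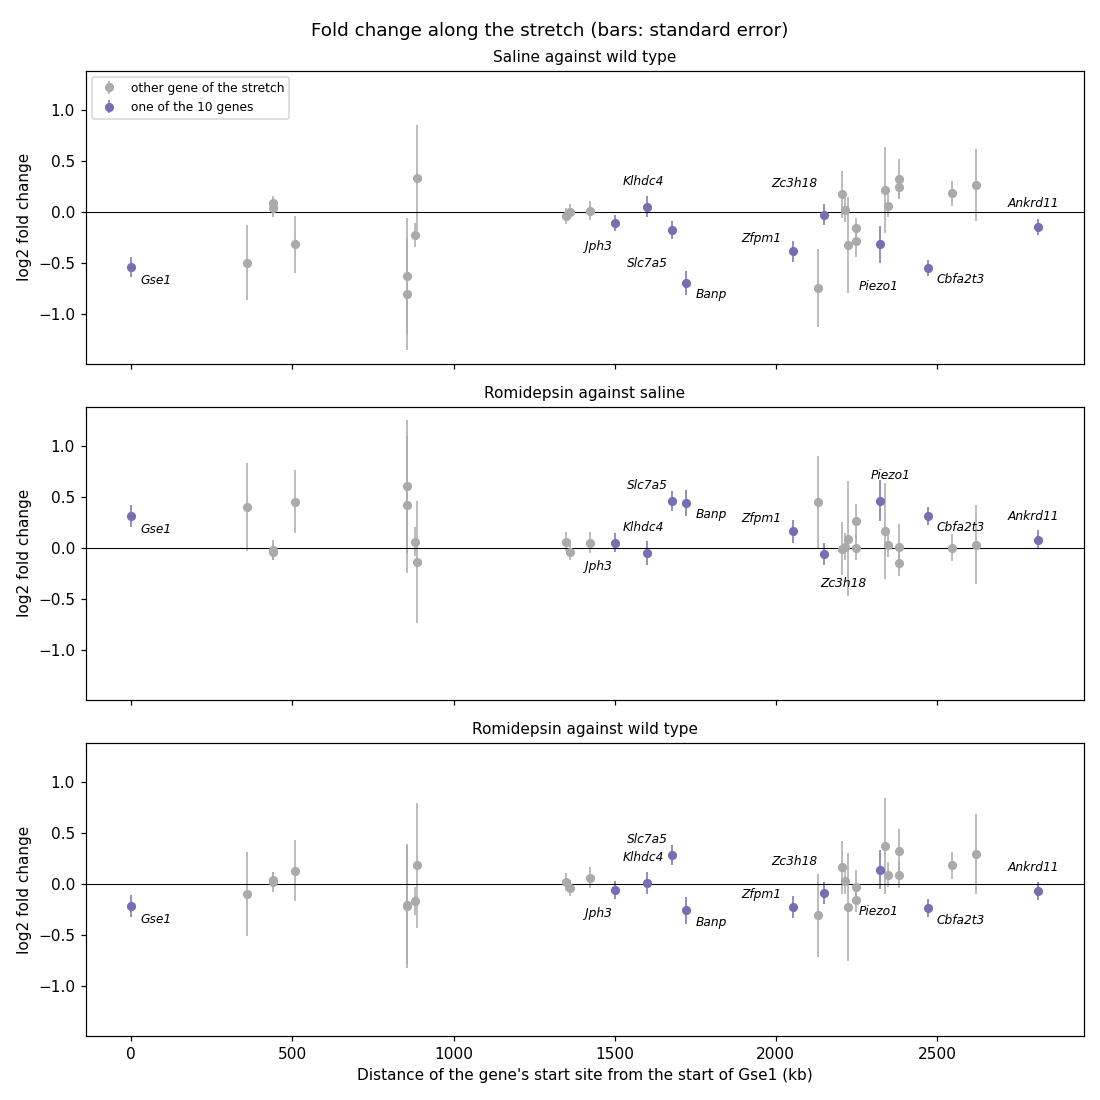
Log2 fold change of the 33 tested genes of the stretch against the distance of their start site from the start of Gse1 in kb, with bars of 1 standard error, in 3 panels for the 3 comparisons. In the top panel Gse1, Banp, Zfpm1 and Cbfa2t3 stand at -0.54, -0.70, -0.39 and -0.55, and the other genes of the stretch lie on both sides of 0, between -0.81 and 0.33.

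Some of these counts can be affected by a neighbour. The exons of Gse1 share 2758 bases, 26.6% of their length, with Gins2, a DNA replication gene on the opposite strand. Those of Piezo1 share 2441 bases, 24.6%, with the tRNA modification gene Ctu2. HTSeq, which made the counts, sets reads that fit more than 1 gene aside as ambiguous, 0.266% to 0.306% of counted alignments where recorded. The strand setting of the counting is not given in the sources used here. Whether reads from the shared bases were set aside or assigned to a gene is therefore not known. Gins2 had 1.41 ± 0.148 CPM in the saline group and 2.0 ± 0.984 CPM in the wild-type group, far less than Gse1. Ctu2 had 15.1 ± 2.87 CPM in the saline group and 18.6 ± 0.413 CPM in the wild-type group, more than Piezo1. No other counted gene shared exonic bases with a member.

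The members have long genes and GC-rich transcripts. Their median gene length was 67.1 kb, against 9.8 kb in the other tested genes of the stretch and 25.0 kb in all tested genes. The longest transcript of each had a median GC content of 56.2%, against 57.5% in the other genes of the stretch and 49.8% in all tested genes, and 7 of the 10 were in the quintile of genes with the highest GC content. Fold changes of all genes moved with GC content. In that highest quintile, 60.1% of genes were lower in saline than in wild type (median log2 fold change -0.04), against 38.8% in the lowest quintile (median 0.04). In romidepsin against saline, 33.7% were lower in the highest quintile (median 0.05) and 66.9% in the lowest (median -0.06). With the median of its own quintile taken off, a setting added after the data were seen, the saline against wild-type log2 fold change was -0.70 in Banp, -0.50 in Cbfa2t3, -0.49 in Gse1 and -0.35 in Zfpm1. In romidepsin against saline it was 0.44 in Banp, 0.41 in Slc7a5, 0.41 in Piezo1, 0.26 in Cbfa2t3 and 0.26 in Gse1. The quintile medians in these comparisons lay between -0.06 and 0.05, so taking them off could change a value only little. The highest quintile spans 55.6% to 82.9% GC, so its median need not match a gene at its upper end. The part of GC content or gene length in the fold changes was not tested.

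**Figure D4:**
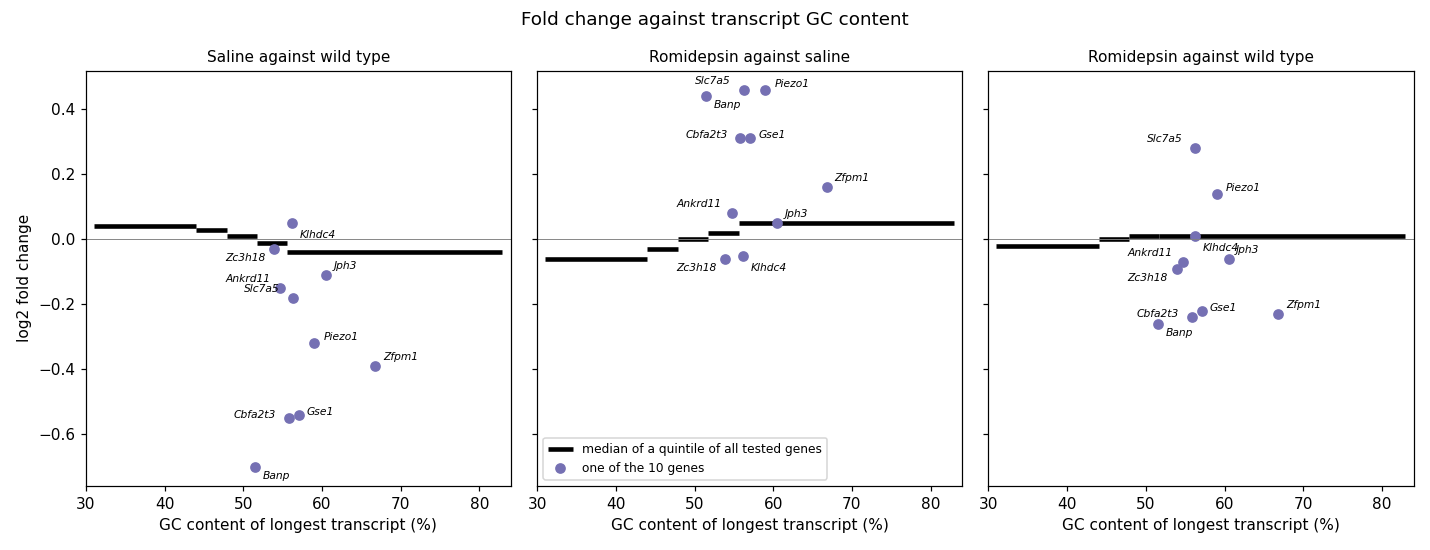
Log2 fold change of the 10 genes (points) against the GC content of their longest transcript in percent, with the median of each quintile of all tested genes as a bar, in 3 panels for the 3 comparisons. The bars slope from 0.04 to -0.04 in saline against wild type. Banp, Cbfa2t3, Gse1 and Zfpm1 lie between -0.70 and -0.39 in that panel.

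Vessel transcripts moved in the same directions as the set. Of 20 endothelial and pericyte markers, 17 had a lower value in saline than in wild type (median log2 fold change -0.35). Of these markers, 11 were lower at an unadjusted p under 0.05 by edgeR, beside 4.80% of all genes. After adjustment 0 passed by edgeR, beside 0.00675% of all genes, and DESeq2 called 1 lower, beside 0.179%. In romidepsin against saline, 19 had a higher value (median 0.24), 5 of them at an unadjusted p under 0.05, beside 1.73% of all genes. After adjustment 0 passed by edgeR or DESeq2. Their summed level was 530 to 578 CPM in the romidepsin group, 411 to 533 CPM in the saline group and 522 to 635 CPM in the wild-type group, and 0 of the markers were at 0 in all libraries. Slc7a5 and Piezo1 are also expressed by vessel cells, and the part of vessel content in these results was not tested. Meningeal and fibroblast markers summed to 499 to 635 CPM in the romidepsin group, 447 to 988 CPM in the saline group and 389 to 682 CPM in the wild-type group. Of these 12 markers, 11 had a higher value in saline than in wild type (median log2 fold change 0.63). At an unadjusted p under 0.05, 6 were higher, beside 3.59% of all genes. In romidepsin against saline, 11 had a lower value (median -0.30), with 0 at that threshold, beside 1.53% of all genes. By edgeR and DESeq2, 0 passed after adjustment, and the part of meningeal content in these results was not tested. Cbfa2t3 and Zfpm1 are known from blood cell development. Of the 10 blood and lymphoid markers, the hemoglobin genes Hba-a1, Hba-a2, Hbb-bs and Hbb-bt were at 0 in all libraries. The list summed to 12.8 to 15.4 CPM in the romidepsin group, 13.4 to 16.3 CPM in the saline group and 11.7 to 16.7 CPM in the wild-type group. Striatal markers, a sign of the dissection, summed to 262 to 285 CPM in the romidepsin group and 235 to 245 CPM in the saline group. The wild-type group had 257 to 276 CPM. Of these 9 markers, 5 had a lower value in saline than in wild type (median log2 fold change -0.12). At an unadjusted p under 0.05 by edgeR, 2 were lower, beside 4.80% of all genes. In romidepsin against saline, 7 had a higher value (median 0.21), 3 of them at that threshold, beside 1.73% of all genes. After adjustment 0 of the 9 passed by edgeR or DESeq2, and their part was not tested. Olfactory bulb and septum markers, another sign of the dissection, summed to 130 to 131 CPM in the romidepsin group and 141 to 177 CPM in the saline group. In the wild-type group they summed to 108 to 165 CPM. All 8 tested had a higher value in saline than in wild type (median log2 fold change 0.74). Of them, 3 were at an unadjusted p under 0.05, beside 3.59% of all genes. In romidepsin against saline, 7 had a lower value (median -1.03), 5 of them at that threshold, beside 1.53% of all genes. By edgeR and DESeq2, 0 passed after adjustment, and their part was not tested either. Of 11 immediate early genes, a list for activity, 8 had a higher value in saline than in wild type (median 0.44). Of them, 6 were at an unadjusted p under 0.05, beside 3.59% of all genes. After adjustment edgeR called 0 and DESeq2 1 higher, beside 0.0344%. In romidepsin against saline, 11 had a lower value (median -0.34), 4 of them at that threshold, beside 1.53%. The part of activity was not tested.

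Of the genes listed as partners of the 10, 0 passed the edgeR test or DESeq2 in the 3 comparisons. No list had more than 2 genes in 1 direction at an unadjusted p under 0.05 by edgeR. Over all genes, 1.46% to 4.80% were past that threshold in 1 direction, depending on the comparison. Of 20 ETO family and corepressor partner genes, 11 were higher and 9 lower in saline than in wild type (median log2 fold change 0.01). Among them Hdac3, a histone deacetylase of corepressor complexes, had 72.3 ± 4.75 CPM in the romidepsin group, 65.8 ± 5.72 CPM in the saline group and 73.2 ± 2.11 CPM in the wild-type group. Of 11 LSD1-CoREST genes, 6 were higher and 5 lower in saline than in wild type (median 0.00), with log2 fold changes of -0.21 (SE 0.13) for Rcor3 and -0.01 (SE 0.08) for Zmym2. Of 15 tested FOG, GATA and NuRD genes, 9 were higher and 6 lower (median 0.01). Zfpm2, the FOG-2 gene, had 18.3 ± 2.63 CPM in the romidepsin group, 28.2 ± 5.06 CPM in the saline group and 21.5 ± 3.33 CPM in the wild-type group, highest in the saline group, where Zfpm1 was lowest. Gata2, with 8 to 56 reads in a library, had 2.86 ± 0.268 CPM in the romidepsin group, 1.80 ± 0.957 CPM in the saline group and 3.71 ± 0.613 CPM in the wild-type group.

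The partner lists of the remaining members had medians of -0.13 to 0.00 in saline against wild type. The 17 tested cap-binding and nuclear exosome genes, which work with Zc3h18, had 7 higher and 10 lower (median log2 fold change -0.01), with -0.20 (SE 0.09) for Zfc3h1 and -0.29 (SE 0.13) for Zcchc8. The 13 tested neutral amino acid transport genes had 5 higher and 8 lower (median -0.01), with the neuronal transporter Slc6a15 at 52.7 ± 3.93 CPM in the romidepsin group, 58.9 ± 4.31 CPM in the saline group and 49.3 ± 1.41 CPM in the wild-type group, and a log2 fold change of -0.20 (SE 0.10) for Slc7a6. The 14 junctophilin and store calcium genes had 3 higher and 11 lower (median -0.08), with the potassium channel gene Kcnn2 at 29.3 ± 3.47 CPM in the saline group and 35.6 ± 4.49 CPM in the wild-type group and a log2 fold change of -0.13 (SE 0.07) for the calcium release channel gene Ryr2. The 7 BEN domain genes had 2 higher and 5 lower (median -0.03), with 0.15 (SE 0.15) for Bend4 and -0.07 (SE 0.07) for Nacc1. The 7 mechanically gated channel genes had 3 higher and 4 lower, with -0.21 (SE 0.19) for Tmem63a and 1.48 (SE 0.61) for Piezo2, which had at most 24 reads in a library. The 7 Ankrd11 partner genes had 1 higher and 6 lower (median -0.13), with -0.13 (SE 0.07) for Kat2a.

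Genes with the CGCG element in their promoter were set beside Banp, whose product binds it. Of 113 tested genes with the 10-base element in a RefSeq promoter window, 39 were lower in saline than in wild type, 34.5% beside 48.7% of all genes, and their median log2 fold change was 0.03. At an unadjusted p under 0.05 by edgeR, 7 were higher and 2 lower, beside 3.59% and 4.80% of all genes, and 0 passed after adjustment by edgeR or DESeq2. The gene with the smallest p was Chuk, a kinase gene of the NF-kappaB pathway, at 36.3 ± 4.09 CPM in the saline group and 49.6 ± 6.64 CPM in the wild-type group. On the higher side came the ribosomal protein gene Rpl10a, at 127 ± 3.63 CPM in the saline group and 110 ± 3.76 CPM in the wild-type group, and Mrpl57 (log2 fold change 0.36, SE 0.13). Ska3 stood on the lower side (log2 fold change -0.99, SE 0.34), with 11 to 61 reads in a library. Of the 113, 68 were lower in romidepsin than in saline (median -0.03), 60.2% beside 51.0% of all genes.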

How the data were processed

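Poly(A) RNA of 8 libraries was analysed. Each deposited table holds the unnormalized read counts of 1 library by gene symbol. Per the submitters' processing notes, bcl2fastq 2.17.1.14, TopHat2 2.1.1 and HTSeq 0.6.1 were used with mm10/GRCm38; no annotation or strand setting is named there. The 5 HTSeq summary entries, present in 7 tables, were left out; 32.4% to 35.3% of counted alignments fell on genes there. Every pair of libraries differed by more than sampling noise. Genes were filtered with filterByExpr (14809 tested, 9611 removed), scaled by TMM and fitted over all 8 libraries with edgeR 4.0.16 in R 4.3.3, 1 term per group (threshold 0.05, Benjamini-Hochberg). DESeq2 1.42.0, limma-voom (limma 3.58.1), other scalings and filters, a replicate block and leaving out each library were alternatives. On simulated counts for saline against wild type (14809 genes), the test recovered 84.0% of simulated 1.5-fold changes and 100% of 2-fold changes. The simulation gave every gene the same spread (biological coefficient of variation 9.33%) and changed only genes with many reads. Real genes differ in spread and reads, so recovery in the real data can be lower, and the 0 calls are not read as absence of change. Positions and exon lengths are from GENCODE M21 (GRCm38), promoters from RefSeq. Log2 levels used a prior count of 2.

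The members and all lists were chosen with earlier results of these data known. Named genes are the 10 members, Shank3, genes sharing exons with a member, other genes of the stretch with an unadjusted p under 0.05, 2 to 4 genes of each partner list with the smallest p in any comparison, 4 genes of the CGCG promoter list with the smallest p, and the 5 nearest profiles to Banp and to Cbfa2t3. Hdac3 counts under both lists that hold it. Other named genes were chosen after their values were seen. Some items that this rule names are not reported here.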

Additional observations from a re-analysis of the deposited data

How the results depend on the processing

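Of the 10 genes, edgeR called 0 in saline against wild type, while DESeq2 called 3 and edgeR without a filter on low counts called 3 (Gse1, Banp and Cbfa2t3 each time). Leaving out 1 library gave 0 to 3 calls: 3 without wild-type replicate 3 (the same genes) and 1 without saline replicate 1 (Banp). Over all genes the calls were 1 in the reported test, 31 by DESeq2, 12 without a filter, 54 without wild-type replicate 3, 9 without saline replicate 1, 3 without saline replicate 3, 4 with the replicate block and 2 with only the groups compared or without either romidepsin library. The cause was not tested. In romidepsin against saline and romidepsin against wild type the count was 0 with every other tool, scaling, filter and left-out library tried. Replicate numbers did not pair the libraries (correlations of same-numbered deviations from -0.18 to 0.10), and with the replicate number as a block 0 of the 10 were called in each comparison. Over 30 fold changes (10 genes, 3 comparisons) and 18 alternatives, 6 fold changes, of Ankrd11, Jph3, Klhdc4 and Zc3h18, changed sign under some setting. In saline against wild type, Banp ranged from -0.83 to -0.61, Cbfa2t3 from -0.59 to -0.50, Gse1 from -0.61 to -0.41 and Zfpm1 from -0.46 to -0.32. Banp ranged in romidepsin against saline from 0.34 to 0.58, Cbfa2t3 from 0.25 to 0.37, Gse1 from 0.19 to 0.39, Slc7a5 from 0.39 to 0.56 and Piezo1 from 0.31 to 0.67. In saline against wild type, Piezo1 ranged from -0.53 without saline replicate 1 to -0.18 without saline replicate 3. Its count of 56 in saline replicate 3 limits its precision.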

Other observations

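Genes with a profile over the 8 libraries like those of Banp and Cbfa2t3 came from several chromosomes. Likeness was the root mean square difference of log2 CPM after each gene's mean was taken off, over 13339 candidate genes, and is a description. The gene nearest to Banp was Acer2, a ceramidase gene on chromosome 4, at a distance of 0.109, with 8.20 CPM in the romidepsin group, 5.89 CPM in the saline group and 9.77 CPM in the wild-type group. Cbfa2t3 itself came second (0.123), followed by the dynein gene Dnah9 (0.146), the DNA polymerase gene Polq (0.147) and the postsynaptic scaffold gene Tanc1 (0.151). Among the genes nearest to Cbfa2t3, Banp had rank 18. The set was chosen by the low CPM of both genes in the saline group, so nothing is read from their likeness. Nearest to Cbfa2t3 were Gfod1 on chromosome 13 (0.095), Fer1l5 (0.099), the endothelial receptor gene Eng (0.107), Fanca (0.107) and the lipase gene Pnpla7 (0.108). Eng is among the vessel markers. Fanca, a DNA repair gene, lies on chromosome 8, within 1 Mb of the end of the stretch.

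In the 1 Mb on either side of the stretch, 46 counted genes were tested. In saline against wild type, 26 were higher and 20 lower (median log2 fold change 0.03), with 4 lower and 0 higher at an unadjusted p under 0.05 by edgeR, beside 4.80% and 3.59% of all genes, and 0 called after adjustment by edgeR or DESeq2. The 4, chosen after their values were seen, were Kcng4 (log2 fold change -0.70, SE 0.25), Dnaaf1 (-0.71, SE 0.27), Zfp276 (-0.40, SE 0.12) and Spata2l (-0.27, SE 0.09).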
